A study of Mus musculus with 6 samples.

Results

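B lineage, germinal center B and plasma cell genes were followed in 6 RNA sequencing libraries of mouse follicular helper T (Tfh) cells, from which B220+ cells had been gated out. The set was a list of 40 gene names, most of them taken by name from the table of the series. Ighm and Ighd are not named there and were looked up by RefSeq coordinates. The list stood for 38 distinct genes, since Igj is the older symbol of Jchain and Cxcr2b matched no mouse gene. These were read among 25760 genes that had a value in every library. Of the 38, 37 had a value in all 6 libraries, and no assembled transcript was assigned to Ighd, the constant region of the IgD heavy chain.

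The Tfh cells came from spleens of FoxP3GFP/DTR CD4Cre/+Bob1fl/fl mice, labelled Bob1KO, and of FoxP3GFP/DTR CD4+/+Bob1fl/fl mice, labelled WT, with 3 libraries per group. Mice of both groups were age- and sex-matched littermates of 6 to 12 weeks on a C57BL/6 background, carried the FoxP3 reporter allele and the floxed Bob1 allele, and received 100 µg of NP-CGG in complete Freund's adjuvant intraperitoneally, with cells taken on day 7. The floxed allele spans all of Pou2af1, the gene of Bob1, and Cre was driven by the CD4 gene promoter, so B cells of Bob1KO mice were not the target of the deletion. Sorted cells were positive for CD3, CD4, CXCR5 and PD-1 and negative for B220 and for the GFP of regulatory T cells, and each library stands for 1 experiment in which 10 to 12 mice were pooled. Bob1 is itself best known as a coactivator of B cells, so the comparison asks which B lineage transcripts the sorted T cells carried with and without it.

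A B cell recognizes antigen through a membrane immunoglobulin held by the signalling pair Cd79a and Cd79b. The kinases Lyn, Blk, Syk and Btk pass this signal on, while Cd22, Cd72 and Fcgr2b damp it. Pax5 and Ebf1 fix B cell identity, and after help from Tfh cells through Cd40 a B cell may become a plasma cell, which secretes immunoglobulin and expresses Jchain, Mzb1 and Sdc1. Several genes of the list are also expressed outside the B lineage, and Lyn, Syk, Btk, Fcgr2b, Ctsh and Cd86 are well known from myeloid cells.

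The libraries differed among themselves before any group was compared. Levels are given as FPKM, the fragments of a transcript divided by its length in kilobases and by the depth of the library, which allows genes of different length to be set side by side. Pou2af1 had 46.1, 32.5 and 34.4 FPKM in WT replicates 1 to 3 and 1.16, 0.237 and 0.317 in Bob1KO replicates 1 to 3, as the labels imply. The summed level of 13 T cell and Tfh markers lay between 4163 and 5601 FPKM in all libraries. Myeloid markers stood apart. Of 18 such genes, 16 had values and 1 of these, Clec9a, was at 0 throughout, and their sum was 716, 586 and 1095 FPKM in WT replicates 1 to 3 and 4870, 94.6 and 1599 in Bob1KO replicates 1 to 3. Y-linked transcripts were at 87.4 FPKM in WT replicate 2 and 97.0 in Bob1KO replicate 2 and at or near 0 in the other 4 libraries. Approximate depth, read from steps between low FPKM values, was 20200000 to 28700000 fragments, at which 1 fragment on a transcript of 1 kb is worth 0.0348 to 0.0495 FPKM.

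Most B lineage genes were present at a trace. A mean over the 6 libraries of under 1 FPKM was found for 21 genes that were above 0 somewhere, and Cd72 was listed at 0 in every library. The 15 remaining genes had a mean of at least 1 FPKM and were tested, 6 of them at 5 FPKM or more. A high value in 1 group could suffice for this, and Basp1 entered with a WT mean of 0.708 FPKM. In a bulk library, fewer cells of a type and less RNA per cell cannot be told apart.

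No tested gene of the list passed an adjusted P of 0.05 (limma, Benjamini-Hochberg over all 10306 genes tested), against 2 genes, or 0.0194%, of all genes tested (1 gene with the replicate number as a block). At an unadjusted P of 0.05 the count was also 0 of 15 in this fit, which held no term for pairs, against 5.28% of all genes. The log2 fold change, Bob1KO minus WT on log2(FPKM + 1), was positive for 10 and negative for 5 of the 15 genes, with a median of 0.14 against -0.0032 over all genes tested. The Bob1KO libraries all lay above the WT libraries for 1 gene, Cd86, against 5.84% of all genes, and all below them for 0 genes, against 4.84%. Taken in pairs of the same replicate number, Bob1KO lay above WT in all 3 pairs for 2 of the 15 genes, Cd22 and Cd86, against 14.9% of all genes, and below WT in all 3 pairs for 2, Ighm and Tnfrsf13b, against 13.4%. Without Bob1KO replicate 1, the library with the highest myeloid sum, 13 genes were tested and the median was -0.094. Without Bob1KO replicate 2, the library with the lowest, it was 0.39 over 15 genes. In both cases 0 genes passed. The plot of fold changes shows the standard errors, which reached 0.66 for Jchain.

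**Figure D1:**
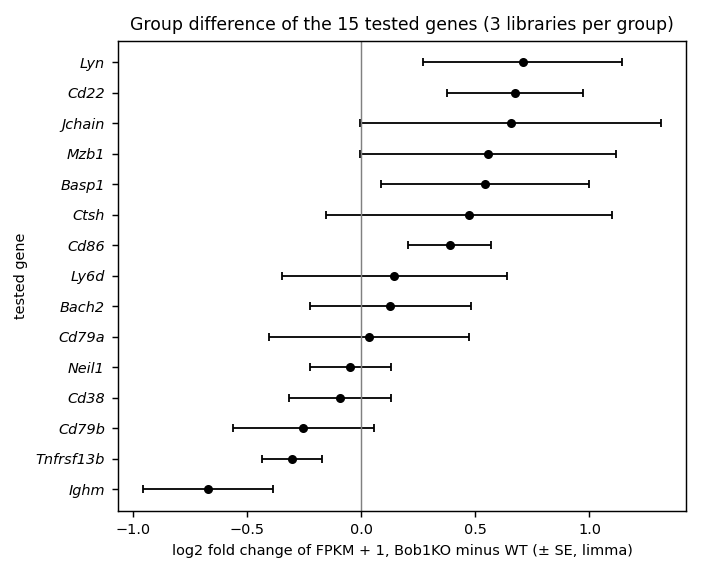
Log2 fold change of FPKM + 1, Bob1KO minus WT (horizontal axis), for the 15 tested genes (vertical axis); points are limma estimates from 3 libraries per group and bars are ± 1 SE. Values run from -0.67 for Ighm to 0.71 for Lyn, and none passed the adjusted threshold.

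Ighm, the constant region of the IgM heavy chain, was by far the most abundant gene of the list. Its FPKM was 864, 444 and 510.0 in WT replicates 1 to 3 and 479, 301 and 336 in Bob1KO replicates 1 to 3. The mean was 606 ± 226 in WT and 372 ± 94.3 in Bob1KO (SD, n = 3 each), and the groups overlapped because Bob1KO replicate 1 lay above WT replicate 2. By mean level Ighm ranked 103 among the 25760 genes. Within each pair of libraries with the same number, Bob1KO was the lower one. The log2 fold change was -0.67 with an SE of 0.28 and an adjusted P of 0.934 (limma), or 0.437 with the replicate number as a block. On the log2 scale the estimate was -0.38 when WT replicate 1, where Ighm was highest and its row longest, was left out. Ighm made up 85.5%, 81.4% and 82.5% of the summed FPKM of the list in WT replicates 1 to 3, and 73.3%, 74.1% and 72.1% in Bob1KO replicates 1 to 3. These shares did not overlap, but they were computed after the values had been seen and were not tested.

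The transcript counted as Ighm was not the same in every library. Ighm lies on the minus strand of chromosome 12 at 113418558 to 113422730 in GRCm38 (GENCODE), downstream of the joining segments Ighj1 to Ighj4 and upstream of Ighd. In WT replicate 1 the assembled row ran from 113416324 to 113430685, which takes in all 4 joining segments and reaches the first annotated base of Ighd. The row of Bob1KO replicate 1 reached the same base of Ighd, and the rows of Bob1KO replicates 1 and 3 held 2 whole joining segments each. The rows of WT replicates 2 and 3 and of Bob1KO replicate 2 held 0, although they still began 4683, 2665 and 4735 bases upstream of the annotated 5′ end. FPKM depends on the length of the transcript that Cufflinks assembled, and the part of these extents in the levels was not tested. Cufflinks' own intervals were narrow, 841 to 887 FPKM in WT replicate 1 and 291 to 311 in Bob1KO replicate 2, and take the assembled row as given.

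**Figure D2:**
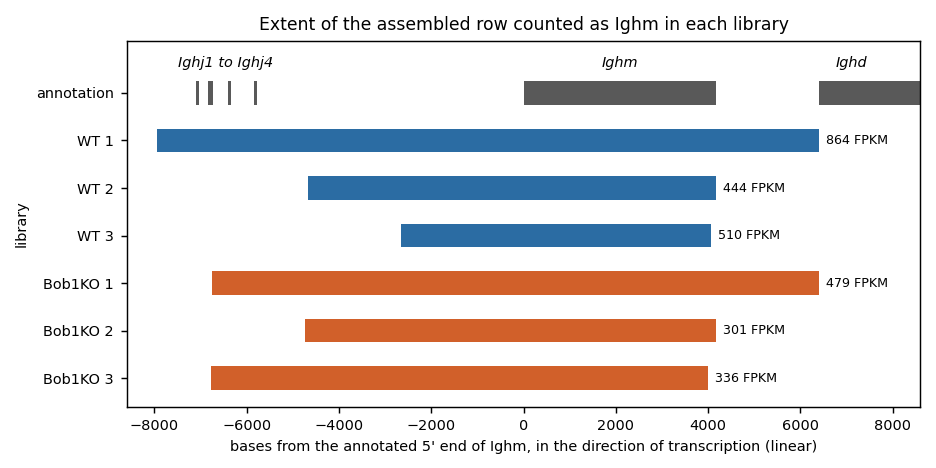
Extent of the assembled row counted as Ighm in each library (bars) along the distance in bases from the annotated 5′ end of Ighm, in the direction of transcription, below the annotated Ighj1 to Ighj4, Ighm and Ighd (which continues past the right edge). The row of WT replicate 1, with 864 FPKM, is the longest at 14362 bases, and that of WT replicate 3 the shortest at 6728 bases.

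The immunoglobulin light chains, which are not on the list, ordered the libraries differently from Ighm. The sum of Igkc, Iglc1 and Iglc2 was 263, 90.0 and 271 FPKM in WT replicates 1 to 3 and 728, 64.9 and 259 in Bob1KO replicates 1 to 3, an 11.2-fold range against a 2.87-fold range for Ighm. Bob1KO replicate 1 was the highest library for the light chains but only the third for Ighm. The ratio of Ighm to Igkc was 6.64, 10.6 and 6.07 in WT and 1.97, 10.6 and 6.74 in Bob1KO. Iglc3 did not have a value in every library and is not in the sum. The light chains too were placed by RefSeq coordinates, and Iglc2 alone ran from 3.87 FPKM in WT replicate 2 to 260 in Bob1KO replicate 1.

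The signalling pair of the antigen receptor was close to the lower limit of the test. Cd79a had 2.28, 1.27 and 0.438 FPKM in WT replicates 1 to 3 and 2.92, 0.746 and 0.685 in Bob1KO replicates 1 to 3. Cd79b had 2.64, 2.86 and 4.36 in WT and 3.23, 1.31 and 3.53 in Bob1KO. The groups overlapped for both, with log2 fold changes of 0.035 (SE 0.44) and -0.25 (SE 0.31) and adjusted P values of 0.999 and 0.957 (limma). The estimate for Cd79a was -0.36 without Bob1KO replicate 1 and -0.27 without WT replicate 3, and that for Cd79b was 0.052 without Bob1KO replicate 2. Vpreb3, a gene related to the surrogate light chain, ranged from 0.0792 FPKM in Bob1KO replicate 2 to 1.49 in Bob1KO replicate 1 and was too low on average to be tested. Within a library, Ighm exceeded Cd79a by between 164 and 1166 times.

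Cd22, an inhibitory lectin of the B cell surface, had the highest level among the B cell surface molecules that could be read per library. It had 32.8, 17.8 and 18.1 FPKM in WT replicates 1 to 3 and 44.9, 25.0 and 40.2 in Bob1KO replicates 1 to 3. The Bob1KO libraries were high except for replicate 2, which lay below WT replicate 1, so the groups overlapped. Within each pair of the same number, Bob1KO was the higher one. The means were 22.9 ± 8.57 and 36.7 ± 10.4 (SD, n = 3 each), and the log2 fold change was 0.67 with an SE of 0.30 and an adjusted P of 0.934 (limma), or 0.637 with the block. Cd22 exceeded Cd79a by 14.0 to 58.7 times within a library. The assembled rows of Cd22 shared bases in all 6 libraries with an annotated antisense gene, Gm29439, and the library kit did not mark strand, so reads of the 2 genes cannot be told apart. The rows of Lyn, Bach2, Cd38 and Mzb1 shared bases with other annotated genes too, and that of Tnfrsf13b did so in 1 library, with the pseudogene Gm12269.

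The other surface molecules that could be read per library were low. Ly6d, a small lipid-anchored protein of early lymphocytes, had 1.13, 2.47 and 0.605 FPKM in WT and 3.74, 0.390 and 1.43 in Bob1KO, with a log2 fold change of 0.14 (SE 0.49, adjusted P of 0.984, limma), which was -0.31 without Bob1KO replicate 1 and -0.11 without WT replicate 3. Ms4a1, which encodes CD20, lay between 0.0895 and 0.992 FPKM. The complement receptor Cr2 did not exceed 0.135, the low-affinity IgE receptor Fcer2a 0.661 and the Fc receptor-like gene Fcrla 0.292. The inhibitory Fc receptor Fcgr2b had 2.06 FPKM in Bob1KO replicate 1 and at most 0.530 in the other 5 libraries. Faim3, the IgM Fc receptor, ranged from 0.0535 to 1.60. Of the 12 genes of the list taken as restricted to B cells, the 11 other than Cd22 summed to 7.86, 7.39 and 6.60 FPKM in WT replicates 1 to 3 and 10.8, 2.97 and 7.45 in Bob1KO replicates 1 to 3. The sums overlapped and had means of 7.28 and 7.08 FPKM, so that Cd22 alone exceeded the other 11 together in every library.

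Cd72, a second inhibitory lectin, could not be read per library. Its assembled row was listed at 0 in all 6 libraries and overlapped the end of a neighbouring gene on the other strand. The authors' group values were 8.68 FPKM for WT and 12.7 for Bob1KO, so the 0 in the files of single libraries is not taken as absence.

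**Figure D3:**
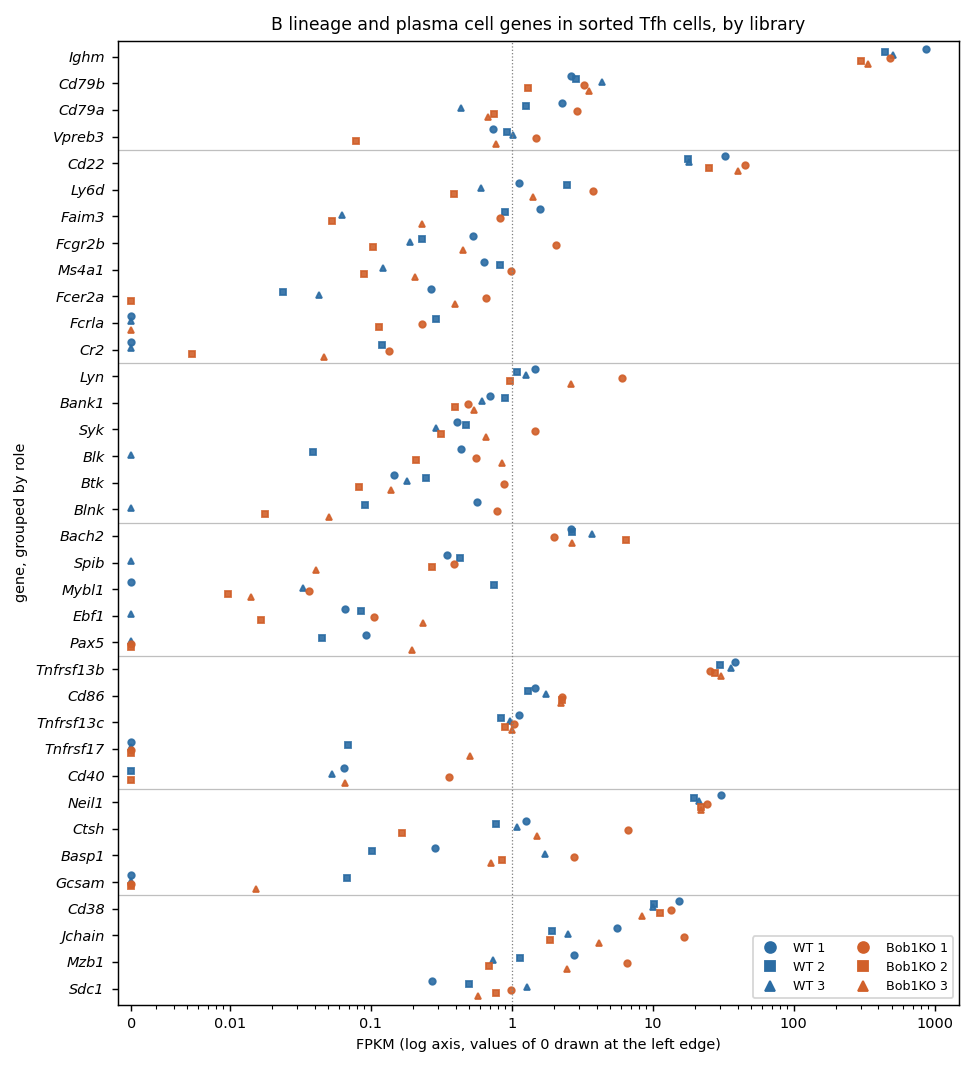
FPKM (horizontal log axis, values of 0 at the left edge) of the 36 genes of the list that were above 0 in some library (vertical axis, grouped by role); circles, squares and triangles are replicates 1, 2 and 3, WT in blue and Bob1KO in orange, and the dotted line marks 1 FPKM. Ighm, Tnfrsf13b, Cd22, Neil1 and Cd38 stand above 5 FPKM in every library, and most other genes spread widely around or under 1.

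Among the signalling genes only Lyn, a kinase that both starts and restrains antigen receptor signals, was high enough to test. It had 1.46, 1.09 and 1.26 FPKM in WT and 6.02, 0.977 and 2.65 in Bob1KO, so that Bob1KO replicate 2 lay below all WT libraries and the other 2 Bob1KO libraries above them. Its log2 fold change was 0.71 (SE 0.44, adjusted P of 0.947, limma) and 0.25 without Bob1KO replicate 1. The B cell kinase Blk reached at most 0.854 FPKM, in Bob1KO replicate 3. The kinases Syk and Btk and the adaptor Blnk were each highest in Bob1KO replicate 1, at 1.46, 0.884 and 0.793 FPKM. Bank1, an adaptor of B cells, alone in this group had a higher mean in WT than in Bob1KO. It had 0.699, 0.897 and 0.612 FPKM in WT and 0.490, 0.397 and 0.539 in Bob1KO. All Bob1KO values of Bank1 lay below all WT values, but with means of 0.736 and 0.475 FPKM it was below the level tested. Among the genes tested, which do not include Bank1, such an order was found for 4.84%. Cufflinks' intervals of Bank1 overlapped between groups, at 0.440 to 0.785 FPKM in WT replicate 3 and 0.356 to 0.721 in Bob1KO replicate 3.

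The transcription factors of B cell identity were at the limit of detection. Pax5 was listed at 0 in 3 libraries and did not exceed 0.197 FPKM, and Ebf1 did not exceed 0.235. Spib lay between 0 and 0.432, and Mybl1, a factor of germinal center cells, had 0.748 in WT replicate 2 and at most 0.0367 elsewhere. The authors' group values for WT and Bob1KO did not match these libraries. They were 0.274 and 0.162 FPKM for Pax5 and 0.116 and 0.105 for Mybl1. Bach2, a repressor that holds B and T cells back from terminal differentiation, was higher, with 2.64, 2.69 and 3.71 FPKM in WT and 1.99, 6.51 and 2.67 in Bob1KO. The groups overlapped, with a log2 fold change of 0.13 (SE 0.35, adjusted P of 0.980, limma). Its direction rested on Bob1KO replicate 2, since the estimate was -0.27 without that library and -0.32 without both replicate 2 libraries. Unlike most of the list, Bach2 was highest in Bob1KO replicate 2 and lowest in Bob1KO replicate 1. The authors' group values of Bach2 were 6.04 FPKM for WT and 5.91 for Bob1KO. They were opposite in direction and above every single library but Bob1KO replicate 2.

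Bob1 acts with Oct factors on the octamer, the letters ATGCAAAT, and the promoters of the list were searched for it on both strands. Of the 38 genes, 26 had a promoter window in the RefSeq set of GRCm38.p6 (250 bases before to 50 after the start), and 2 of these, or 7.69%, held the motif, against 1.97% of 27025 genes. Both are shown because they carry the motif of the deleted coactivator, with the octamer in capitals. They belong to genes at a trace, since Vpreb3 averaged 0.838 FPKM and Blnk 0.253. The Vpreb3 window lies at chr10:75948050-75948349 on the plus strand and the Blnk window at chr19:40994172-40994471 on the minus strand, both printed 5′ to 3′ in the direction of the gene. A match of letters is a description, and the difference between these shares was not tested.
Vpreb3: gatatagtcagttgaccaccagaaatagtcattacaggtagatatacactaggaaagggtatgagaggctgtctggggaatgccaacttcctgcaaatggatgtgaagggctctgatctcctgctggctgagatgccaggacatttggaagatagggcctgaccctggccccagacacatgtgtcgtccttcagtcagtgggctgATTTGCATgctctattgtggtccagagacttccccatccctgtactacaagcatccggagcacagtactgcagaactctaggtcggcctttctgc
Blnk: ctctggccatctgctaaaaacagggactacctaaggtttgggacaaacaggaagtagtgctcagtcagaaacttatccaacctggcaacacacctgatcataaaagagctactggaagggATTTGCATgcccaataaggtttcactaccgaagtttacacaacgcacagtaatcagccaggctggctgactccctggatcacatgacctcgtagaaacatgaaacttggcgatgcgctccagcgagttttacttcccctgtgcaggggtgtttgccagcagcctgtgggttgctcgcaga

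In Vpreb3 the octamer starts 45 bases before the start site and in Blnk 130 bases before it. Vpreb3 had 0.743, 0.929 and 1.02 FPKM in WT replicates 1 to 3 and 1.49, 0.0792 and 0.768 in Bob1KO replicates 1 to 3. Blnk had 0.564, 0.0909 and 0 in WT and 0.793, 0.0178 and 0.0507 in Bob1KO. For both genes the groups overlapped, and Bob1KO replicate 1 held the highest value.

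The receptors for T cell help and survival factors differed widely in level. Tnfrsf13b encodes TACI, a receptor for the survival factors BAFF and APRIL, and was the most abundant of them. It had 38.3, 30.1 and 35.7 FPKM in WT replicates 1 to 3 and 25.4, 27.7 and 30.3 in Bob1KO replicates 1 to 3. The WT libraries were the higher ones, and the groups overlapped only by Bob1KO replicate 3 and WT replicate 2. Within each pair of the same number, Bob1KO was again the lower one. The means were 34.7 ± 4.20 and 27.8 ± 2.45 (SD, n = 3 each), with a log2 fold change of -0.30, an SE of 0.13 and an adjusted P of 0.934 (limma), or 0.820 with the block. The assembled rows of Tnfrsf13b were 8378 to 20512 bases long, and the part of these extents in the levels was not tested. The other receptors of this family were low. Tnfrsf13c, the BAFF receptor of B cells, lay between 0.842 and 1.12 FPKM, and Tnfrsf17, the receptor BCMA of plasma cells, was listed at 0 in 4 libraries and had at most 0.509. That value was of Bob1KO replicate 3, although the authors' group value of Tnfrsf17 for Bob1KO was 0. Tnfrsf13b exceeded Tnfrsf13c by 24.6 to 36.5 times within a library.

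Cd86, a ligand of CD28 on antigen-presenting cells, had 1.45, 1.30 and 1.76 FPKM in WT and 2.29, 2.26 and 2.24 in Bob1KO. All Bob1KO libraries lay above all WT libraries, and unlike most genes of the list Cd86 hardly differed between the Bob1KO libraries. The log2 fold change of 0.39 with an SE of 0.18 did not pass over all genes (adjusted P of 0.944, limma). Cufflinks' intervals of single libraries were wide beside this difference, 1.43 to 2.09 FPKM in WT replicate 3 and 1.75 to 2.82 in Bob1KO replicate 1. Cd40, the receptor on B cells through which Tfh cells give help, did not exceed 0.358 FPKM and was listed at 0 in both replicate 2 libraries.

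Of the germinal center and other B cell genes, Neil1, a DNA glycosylase of base excision repair, was the most abundant. It had 30.7, 19.7 and 21.3 FPKM in WT and 24.2, 21.9 and 21.9 in Bob1KO. The values overlapped, and WT replicate 1 alone stood higher. The log2 fold change was -0.048 (SE 0.18, adjusted P of 0.988, limma), and it was 0.14 without WT replicate 1. Ctsh, a cathepsin protease, had 1.27, 0.769 and 1.08 FPKM in WT and 6.66, 0.168 and 1.503 in Bob1KO, a 39.7-fold range that was the widest of the 15 tested genes. Basp1, a membrane-bound signalling protein, had 0.285, 0.103 and 1.74 in WT and 2.75, 0.856 and 0.719 in Bob1KO. Both were highest in Bob1KO replicate 1, their log2 fold changes were 0.47 (SE 0.63) and 0.54 (SE 0.45), and without that library neither reached the level tested. Gcsam, a marker of germinal center B cells, did not exceed 0.0677 FPKM.

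The plasma cell genes followed the spread between libraries more than the groups. Jchain, which joins IgM and IgA into polymers, had 5.55, 1.93 and 2.52 FPKM in WT replicates 1 to 3 and 16.8, 1.86 and 4.18 in Bob1KO replicates 1 to 3. Mzb1, a chaperone of immunoglobulin secretion, had 2.76, 1.15 and 0.743 in WT and 6.63, 0.691 and 2.48 in Bob1KO. Both were highest in Bob1KO replicate 1 and lowest in Bob1KO replicate 2, with the WT libraries between them. The log2 fold changes were 0.65 (SE 0.66) for Jchain and 0.56 (SE 0.56) for Mzb1, with an adjusted P of 0.9504 for each (limma), and without Bob1KO replicate 1 they were -0.082 and 0.0065. Sdc1, which encodes the plasma cell marker CD138, lay between 0.274 and 1.28 FPKM and was highest in WT replicate 3. Cd38, an ectoenzyme that activated T cells and other leukocytes also carry, had 15.3, 10.2 and 10.1 FPKM in WT and 13.4, 11.3 and 8.40 in Bob1KO. Its log2 fold change was -0.094 (SE 0.22, adjusted P of 0.974, limma), and it was 0.088 without WT replicate 1 and 0.074 without Bob1KO replicate 3.

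The order of the libraries was shared by many genes of the list. Of the 36 genes above 0, 18 were highest in Bob1KO replicate 1 and 14 were lowest in Bob1KO replicate 2 alone, although both libraries belong to the same group. Bob1KO replicate 1 lay above Bob1KO replicate 2 for 31 of the 36 genes. Among the 9 tested genes under 5 FPKM, 7 were highest in Bob1KO replicate 1 and 5 lowest in Bob1KO replicate 2. Among the 6 genes of at least 5 FPKM, 4 were highest in WT replicate 1 and 2 in Bob1KO replicate 1. Bob1KO replicate 1 lay above Bob1KO replicate 2 for 5 of the 6 genes of at least 5 FPKM and for 26 of the 30 under it. Of the 21 genes under 1 FPKM, 9 were highest in Bob1KO replicate 1 and 7 lowest in Bob1KO replicate 2. The plot of deviations by library gives the values of the tested genes, and no test was made of this order. The same counts were not made over all genes, so they are not read as particular to the list. Of the 13 T cell and Tfh markers, all but Cd28 and Cd200 were also higher in Bob1KO replicate 1 than in Bob1KO replicate 2.

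**Figure D4:**
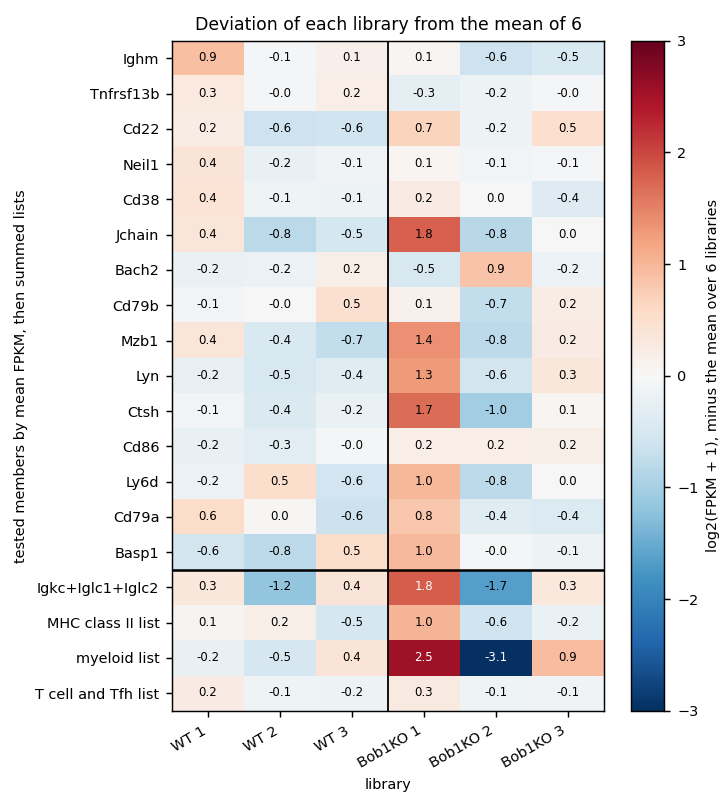
Deviation of each library (columns) from the mean of the 6 libraries on log2(FPKM + 1), for the 15 tested genes from the highest to the lowest mean and, below the thick line, for the summed immunoglobulin light chains and 3 marker lists (rows); red is above and blue below the mean. Bob1KO 1 is red and Bob1KO 2 blue for Jchain, Mzb1, Lyn, Ctsh and Ly6d as for the light chain, MHC class II and myeloid sums, whereas Ighm, Tnfrsf13b and Neil1 are highest in WT 1.

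Most myeloid markers and several MHC class II genes were also highest in Bob1KO replicate 1. Of the 15 myeloid markers above 0, 14 were highest in Bob1KO replicate 1 and 13 lowest in Bob1KO replicate 2, and S100a8 and S100a9 together ran from 59.6 FPKM in Bob1KO replicate 2 to 3460 in Bob1KO replicate 1. Of 8 MHC class II and antigen presentation genes, 6 had values, and they summed to 52.1, 55.7 and 34.6 FPKM in WT replicates 1 to 3 and 101, 32.3 and 42.7 in Bob1KO replicates 1 to 3. Cd74, H2-Aa, H2-Ab1 and H2-Eb1 were highest in Bob1KO replicate 1, whereas H2-Ob was highest in WT replicate 2 and Ciita in WT replicate 1. The sum of Jchain and Mzb1 was 8.32, 3.08 and 3.26 in WT and 23.4, 2.55 and 6.66 in Bob1KO, a 9.17-fold range. The other plasma cell genes of the list did not share this order, as Sdc1 was highest in WT replicate 3 and Cd38 in WT replicate 1. The sum of the 13 T cell and Tfh markers was also highest in Bob1KO replicate 1, but at 5601 FPKM against 4275 in Bob1KO replicate 2 it differed by 1.31 times, where the myeloid sum differed by 51.5 times. Markers of NK and CD8 T cells summed to between 91.7 and 149 FPKM and those of erythroid cells to between 2.78 and 14.6, and neither sum was highest in Bob1KO replicate 1. The part of other cells in the levels of the list was not tested, and a sorted B cell library was not analysed here.

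**Figure D5:**
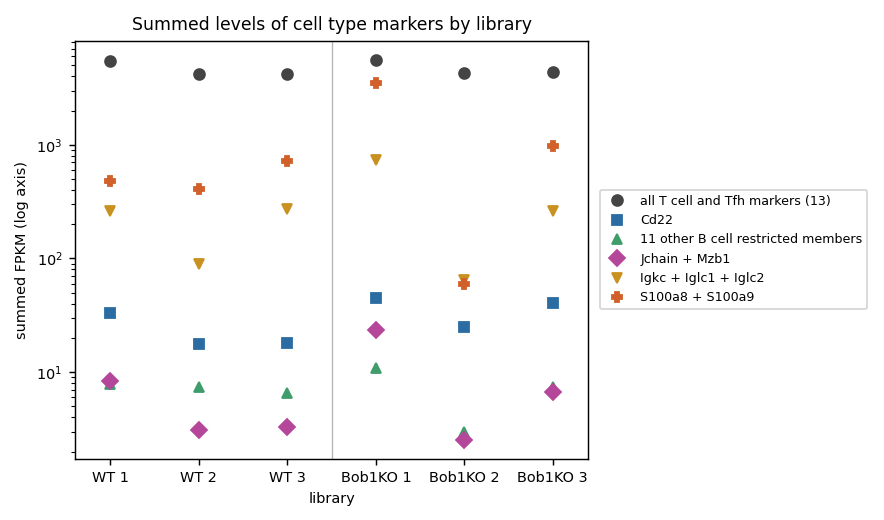
Summed FPKM (vertical log axis) in each library (horizontal axis, WT left and Bob1KO right of the line) of T cell and Tfh markers, Cd22, the 11 other B cell restricted genes, Jchain and Mzb1, the light chains, and S100a8 with S100a9. The T cell sum stays between 4163 and 5601 FPKM, whereas the light chain sum runs from 64.9 to 728 FPKM and is highest in Bob1KO 1 and lowest in Bob1KO 2.

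B lineage genes outside the list gave the same count of called genes. Of 17 such genes, 8 were tested and 0 passed the adjusted P (limma). An unadjusted P under 0.05 was found for 3 of the 8, 1 with a positive and 2 with a negative fold change, against 5.28% of all genes tested. These 3, and Irf4 among the plasma cell genes, did not overlap between groups, which held over all genes for 5.84% with Bob1KO above and 4.84% with Bob1KO below. Both lists were chosen with earlier results of these data known, so these counts cannot be read as enrichment. Fcrl1, an Fc receptor-like molecule of B cells, had 17.9, 15.2 and 14.1 FPKM in WT and 11.97, 11.6 and 9.03 in Bob1KO (log2 fold change -0.50, SE 0.16, adjusted P of 0.863, limma). Mef2b, a transcription factor of germinal center B cells, had 30.6, 9.28 and 10.6 FPKM in WT and 1.22, 1.18 and 0.404 in Bob1KO. Its log2 fold change was -3.04 (SE 0.44, unadjusted P of 0.00023 and adjusted P of 0.209, limma). The paper reports lower Mef2b in Bob1KO Tfh cells, both by RNA sequencing and by RT-qPCR. Hhex, a homeobox factor, had 0.773, 0.744 and 0.188 in WT and 3.88, 1.57 and 0.999 in Bob1KO (log2 fold change 0.92, SE 0.38, adjusted P of 0.934, limma). Of 6 further plasma cell genes, 5 were tested and 0 passed, with Irf4 alone at an unadjusted P under 0.05. Irf4, a factor of plasma cells and activated T cells, had 4.91, 4.78 and 2.89 FPKM in WT and 5.62, 5.87 and 7.75 in Bob1KO (log2 fold change 0.53, SE 0.22, adjusted P of 0.934, limma).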

How the data were processed

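RNA from sorted Tfh cells (0.7 ng per library) was amplified with a SMART-Seq v4 kit, which keeps no strand. Reads passed through cutadapt 1.2.1, PRINSEQ and TopHat2 2.0.13 (GRCm38, mm10), and the authors deposited FPKM per assembled gene from Cufflinks 2.2.1. Tools come from the submitters' processing notes, with PRINSEQ from the paper's methods. No source used here gives the annotation version. The authors' table of both groups also holds group FPKM, log2 fold changes and p-values, and only its names and group FPKM were read.

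Transcripts were assembled in each library alone, and rows without a gene name held 94.1% to 95.9% of the FPKM. Rows were therefore assigned by position to the gene with which they shared at least 0.5 of their joint length, or of which they covered at least 0.95, and summed per gene. Between 91.0% and 91.7% of the FPKM was assigned. Ighm, Ighd and the light chains were placed by RefSeq coordinates, and Mzb1, Gcsam and Jchain by their older symbols. Genes that overlap cannot be told apart.

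Genes with a mean of at least 1 FPKM were tested with limma 3.58.1 (R 4.3.3) on log2(FPKM + 1), with a variance trend, two-sided, at an adjusted P of 0.05. This scale understates changes of low genes. Tables were made with Python 3.11.15. On simulated data of 10306 genes for the Bob1KO against WT comparison, the fit recovered 51% of 2-fold and 87% of 4-fold changes, with 4 false calls. The simulation changed 100 genes at each size, by shifts on log2(FPKM + 1). Its noise was drawn independently for each gene and library, without effects shared by a library. The data gave only 2 calls over all genes, so these shares may overstate the recovery in them. Files hold no counts, and depth is approximate. The p-values measure the spread between 3 libraries per group, each taken as 1 experiment. Same-numbered WT and Bob1KO libraries deviated together in each pair (r = 0.12, 0.14 and 0.12 across genes, which are not independent). Y-linked transcripts were high in both replicate 2 libraries alone, with sums of 87.4 and 97.0 FPKM. The replicate numbers were therefore read as pairs in the counts by pair and in the fit with a replicate block. The main fit held no term for pairs, so its SE and P values ignore the pairing. Alternatives were another pseudocount, no filter, quantile and median-ratio scaling, no variance trend, a shared length of 0.7, a replicate block, and leaving out libraries. Each gene of the list is accounted for, those tested by every library. Other genes are named from marker lists written for this comparison. The members and lists were chosen with earlier results of these data known. One gene of the marker lists is not reported here.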

Additional observations from a re-analysis of the deposited data

How the results depend on the processing

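No gene of the list passed an adjusted P of 0.05 under any of the 14 alternatives run (limma), and the median log2 fold change of the tested genes lay between 0.07 and 0.24 in those that kept all libraries or left out both replicate 2 libraries. Leaving out each library in turn gave medians from -0.094 (without Bob1KO replicate 1) to 0.39 (without Bob1KO replicate 2). The count over all genes was 2, and it was 1 with a pseudocount of 0.1, 1 in the paired fit with a replicate block, 3 with no filter, quantile normalization or median-ratio scaling, 2 without the variance trend, with a shared length of 0.7 or without both replicate 2 libraries, and from 0 (without WT replicate 2) to 7 (without WT replicate 1) when each library was left out. The replicate block changed no call of a gene of the list. Of 207 values of single genes of the list, 195 kept their direction and 12 reversed it, none of them past the threshold. Leaving out each library in turn gave ranges across 0 for 7 genes, namely -0.36 to 0.32 for Cd79a (negative without Bob1KO replicate 1 or WT replicate 3), -0.43 to 0.052 for Cd79b (positive without Bob1KO replicate 2), -0.31 to 0.57 for Ly6d (negative without Bob1KO replicate 1 or WT replicate 3), -0.27 to 0.40 for Bach2 (negative without Bob1KO replicate 2), -0.24 to 0.088 for Cd38 (positive without WT replicate 1 or Bob1KO replicate 3), -0.17 to 0.14 for Neil1 (positive without WT replicate 1) and -0.082 to 1.24 for Jchain (negative without Bob1KO replicate 1). Cd79a turned to -0.020 with quantile normalization, and Bach2 to -0.32 without both replicate 2 libraries. The cause was not tested. Values of the 21 genes under 1 FPKM rest on average on fewer fragments per kilobase than those of the tested genes. Of these 21, 12 were listed at 0 in at least 1 library.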
